A study of Mus musculus with 4 samples.

Results

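A set of 10 genes of vascular growth factor, Notch and endothelin signaling was followed across the cell classes of the adult mouse brain: the ligands Pdgfb, Vegfa, Jag1 and Edn1 and the receptors Pdgfrb, Flt1, Kdr, Tek, Notch3 and Ednrb. The members were chosen by symbol, and 10 of 10 were found among the 31053 genes of the count matrices. The data are droplet-based single-cell RNA-seq libraries (3′ tags with unique molecular identifiers, UMIs, that mark single RNA molecules) from 4 male mice of the strain C57BL/6J at P90 (postnatal day 90), 1 whole-brain library each. All 4 brains were dissociated with enzymes. In the no inhibitors group (2 mice) no drug was added. In the with inhibitors group (2 mice) actinomycin D and triptolide, which block transcription, were present from perfusion to digestion, and anisomycin, which blocks translation, during dissection and digestion. The study's methods state that the meninges were removed as far as possible, which limits what these samples say of vessels on the brain surface. The labels call the libraries separate samples of 1 batch, so the p-values measure the spread between these animals alone.

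Brain vessels are tubes of endothelial cells wrapped by mural cells, which are pericytes on capillaries and smooth muscle cells on arteries, and are covered by astrocyte end-feet. Endothelial PDGF-B, the product of Pdgfb, acts on PDGFRβ (Pdgfrb) of mural cells and keeps pericytes on the vessel. VEGF-A acts on endothelial VEGFR2 (Kdr), the main signaling receptor, while VEGFR1 (Flt1) binds VEGF-A tightly and limits what reaches Kdr. Tie2 (Tek) is the endothelial receptor of the angiopoietins. Jagged1 (Jag1) is a membrane-bound Notch ligand, and Notch3 is the Notch receptor of mural cells. Endothelin-1 (Edn1) is a peptide that constricts vessels, and the endothelin receptor B (Ednrb) is one of its receptors.

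To show what lies upstream of 4 members whose UMIs were concentrated in endothelial-like cells, the bases from 250 to 11 before the RefSeq transcription start are printed 5′ to 3′ on the gene's strand (GRCm38.p6). The windows are chr5:147726022-147726261 on the minus strand for Flt1, chr5:75978466-75978705 on the minus strand for Kdr, chr4:94739039-94739278 on the plus strand for Tek and chr13:42301226-42301465 on the plus strand for Edn1. Capitals mark GGAAG or its reverse complement CTTCC, a form of the core letters bound by ETS factors, a family known to act in endothelium.
Flt1: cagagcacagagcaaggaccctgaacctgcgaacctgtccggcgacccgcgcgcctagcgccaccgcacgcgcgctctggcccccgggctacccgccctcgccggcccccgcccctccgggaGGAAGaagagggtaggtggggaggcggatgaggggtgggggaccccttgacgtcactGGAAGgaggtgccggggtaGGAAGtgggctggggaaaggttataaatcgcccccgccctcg
Kdr: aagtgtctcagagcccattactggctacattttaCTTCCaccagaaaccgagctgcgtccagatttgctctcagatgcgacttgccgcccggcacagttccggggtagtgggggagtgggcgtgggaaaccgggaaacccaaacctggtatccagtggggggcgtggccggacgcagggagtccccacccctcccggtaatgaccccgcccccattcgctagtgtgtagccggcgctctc
Tek: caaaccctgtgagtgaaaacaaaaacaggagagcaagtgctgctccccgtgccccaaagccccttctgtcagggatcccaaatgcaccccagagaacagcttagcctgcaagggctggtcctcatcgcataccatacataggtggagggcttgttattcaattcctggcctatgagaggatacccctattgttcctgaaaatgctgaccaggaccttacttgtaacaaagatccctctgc
Edn1: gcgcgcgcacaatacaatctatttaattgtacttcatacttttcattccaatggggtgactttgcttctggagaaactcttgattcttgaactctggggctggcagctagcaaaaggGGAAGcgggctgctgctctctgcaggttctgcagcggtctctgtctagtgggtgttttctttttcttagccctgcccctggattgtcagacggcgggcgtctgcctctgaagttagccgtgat
GGAAG or CTTCC was present 3 times in the Flt1 window, 1 time in that of Kdr and 1 time in that of Edn1. The Tek window held these letters 0 times, and 62.2% of all 32851 RefSeq windows of this length held them. Shorter forms of the ETS core were not searched, so a window without GGAAG or CTTCC can still hold an ETS core. The letters TGGGAA or TTCCCA, read by the Notch partner RBPJ, were present 1 time in the Kdr window and 0 times in the other 3. In all windows their share was 20.8%, and in these 4 windows no match of either search overlapped one of the other. Such matches describe letters and not binding, and 8 of the 10 members had a window in the table.

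After filtering, 9811 of 12487 barcodes were kept, with 2081 to 2796 cells per animal. The libraries held 5134359 to 7529804 UMIs, and 67 barcode sequences occurred in more than 1 library. Clusters were named by marker genes from which the 10 members had been left out, and the names are therefore written as endothelial-like, pericyte-like and so on. The classes used most were endothelial-like (1687 cells), astrocyte-like (1952 cells), microglia-like (3138 cells) and mural-like cells (331 cells). Olfactory ensheathing-like cells came from replicate 1 of each group alone.

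Within the mural-like cells, 133 cells were pericyte-like and 36 were smooth muscle-like, while 162 barcodes stood apart. These mixed barcodes had a median of 3205 to 5425 UMIs per animal, against 887 to 1013 in pericyte-like cells, and carried markers of both vessel layers. The 7 endothelial markers summed to 11600 to 13180 CPM (counts per 1e6 UMIs) in them, to 107 to 353 CPM in pericyte-like cells and to 19250 to 20840 CPM in endothelial-like cells, with 0 of 7 markers at 0 in any of these. Their 7 pericyte markers summed to 5990 to 7923 CPM, against 29410 to 34360 CPM in pericyte-like cells. The 74 erythrocyte-like barcodes also carried endothelial markers, at 6618 to 11320 CPM. Levels in mural cells are therefore given for pericyte-like and smooth muscle-like cells alone, and tests over all mural-like cells are followed by the value without the mixed barcodes.

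The first question was which classes held the RNA of each ligand and of each receptor. Protein and signaling were not measured. Levels are CPM of the class in 1 animal, listed in the order no inhibitors replicates 1 and 2, then with inhibitors replicates 1 and 2. Means are given ± SD over the 4 animals, and levels are compared between classes for 1 gene and not between genes. Because the classes are clusters of the same cells, these levels are a description without a test. They cannot tell more cells that express a gene from more RNA per cell.

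Pdgfb (chr15:79995874-80014977, minus strand) was highest in endothelial-like cells, with 214.9, 242.6, 223.2 and 264.3 CPM. All 4 animals lay above every other class apart from the mixed barcodes (229 to 335 CPM), which carried endothelial markers. Microglia-like cells came next among the classes without endothelial markers, with 107.5, 89.97, 102.3 and 102.1 CPM, from 451 UMIs in all. This was 42.5% of the endothelial level. The endothelial markers in the same microglia-like cells summed to 0.90% of their endothelial level, and Flt1 reached 0.590% of its own, so Pdgfb there stood far above the proportion of those other endothelial transcripts. Pdgfb was near the background in astrocyte-like (1.00 ± 1.31 CPM) and oligodendrocyte-like cells (0.440 CPM). In pericyte-like cells, which carry its receptor, 1 UMI was counted.

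The share of single cells told the same order. With every cell reduced by random draws to 1000 UMIs (shallower cells left out: 222 endothelial-like, 421 microglia-like), Pdgfb was detected in 18.04 ± 1.55% of endothelial-like cells and in 9.25 ± 0.60% of microglia-like cells. In oligodendrocyte-like cells, taken as a class that should lack it, none of 881 thinned cells held a Pdgfb UMI. Without thinning the shares were 33.7%, 13.02% and 0.145%, at median depths of 1589 to 1918, 1272 to 1491 and 2448 to 3132 UMIs. Endothelial-like cells held 52.1 ± 8.90% and microglia-like cells 28.2 ± 6.32% of all Pdgfb UMIs. Such shares, here and for the other members, depend on which cells the digestion recovered. Microglia-like cells were 32.0% and neuron-like cells 2.9% of the kept cells. The paper holds that this dissociation system is likely unsuited to work that needs accurate proportions of cell types.

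Vegfa (chr17:46016993-46032369, minus strand) was measured almost wholly in astrocyte-like cells, with 312, 236.5, 319.3 and 336.3 CPM and 88.0 ± 1.97% of its UMIs. The highest single value in any other class was 65.2 CPM. The next levels, 39.0 ± 17.5 CPM in oligodendrocyte precursor-like and 38.4 ± 18.7 CPM in neuron-like cells, rested on 7 and 16 UMIs and overlapped each other. Endothelial-like cells, which carry its receptors, had 2.77 CPM, which is 0.920% of the astrocyte level, below the 2.49% that the astrocyte markers reached there. Pericyte-like cells had 0 Vegfa UMIs, which allows up to 20.8 CPM.

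Jag1 (chr2:137081456-137116644, minus strand) was present in both layers of the vessel wall. Smooth muscle-like cells had 311.1, 166.8, 451.6 and 416.1 CPM from 29 UMIs, and pericyte-like cells 197.1, 88.34, 240.9 and 226.5 CPM from 26 UMIs. The ranges of these neighbors overlapped. Endothelial-like cells were lower, with 68.85, 66.02, 74.41 and 75.86 CPM, and all 4 values lay below the lowest pericyte-like value. Since endothelial-like cells were many, they still held 44.4 ± 7.71% of the Jag1 UMIs. Astrocyte-like cells had 26.5 CPM, or 37.2% of the endothelial level, where endothelial markers reached 0.836% of theirs. The same 26.5 CPM was 14.1% of the pericyte level, where pericyte markers reached 0.261% of theirs. In oligodendrocyte-like and microglia-like cells Jag1 was detected in 0.0794% and 0.0342% of thinned cells, against 29.2% of smooth muscle-like cells.

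Edn1 (chr13:42301476-42307990, plus strand) was an endothelial transcript, with 178, 175.8, 179.4 and 193.4 CPM and 74.6 ± 7.39% of its UMIs in endothelial-like cells. The 4 animals differed by little. Pericyte-like cells had 0, 0, 0 and 129.4 CPM from 4 UMIs of a single animal, and smooth muscle-like cells had 0 UMIs, which allows up to 33.2 CPM. The Edn1 of the mural-like class therefore came from the mixed barcodes, with 132 of its 136 UMIs.

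Pdgfrb, the receptor of PDGF-B, was highest in pericyte-like cells, with 1347, 1524, 1472 and 1909 CPM. Smooth muscle-like cells followed with 311.1, 233.5, 376.4 and 624.1 CPM, and the ranges of the pair did not overlap. At 1000 UMIs per cell, 83.5 ± 14.8% of pericyte-like cells and 39.0 ± 9.11% of smooth muscle-like cells held a Pdgfrb UMI, against 0.207% of oligodendrocyte-like cells. Astrocyte-like cells had 67.66, 77.87, 77.12 and 77.49 CPM, and because they were many, 25.6 ± 4.21% of all Pdgfrb UMIs. That level was 4.80% of the pericyte level, where the 7 pericyte markers together reached 0.261%. In endothelial-like cells the order was the opposite, with Pdgfrb at 0.576% and the pericyte markers at 1.26%. Fibroblast-like cells, at 48.5 ± 27.2 CPM, overlapped the astrocyte-like range.

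Flt1 (chr5:147561604-147726011, minus strand) had its highest level in endothelial-like cells, with 2814, 2702, 2653 and 3015 CPM and a UMI in 88.5 ± 1.29% of cells thinned to 1000 UMIs. Between 71.8% and 79.8% of its UMIs were in these cells in every animal, and a further 16.1 ± 2.57% were in the mixed barcodes. Pericyte-like cells had 99.4 ± 55.7 CPM from 14 UMIs. The counts are per gene and do not separate the membrane-bound from the soluble form of this receptor.

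Kdr (chr5:75932827-75978458, minus strand) had 309, 222.1, 316.2 and 362.6 CPM in endothelial-like cells, which held 79.0 ± 5.71% of its UMIs. The replicate 2 animal of the no inhibitors group was the lowest. Oligodendrocyte-like cells came next among classes without endothelial markers, at 14.8 ± 5.35 CPM from 39 UMIs. This was 4.89% of the endothelial level, where Flt1 reached 0.528% and the endothelial markers 0.495%, and the range overlapped that of ependymal-like cells.

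Tek (chr4:94739289-94874976, plus strand) had 364.4, 324.1, 390.6 and 341.8 CPM in endothelial-like cells. The groups were interleaved. Erythrocyte-like barcodes, which carried endothelial markers, had 140.4 ± 32.8 CPM of Tek. Among classes without endothelial markers, 4 UMIs in neuron-like and 1 UMI in smooth muscle-like cells gave the next levels, 9.64 and 9.41 CPM. Pericyte-like cells had 0 UMIs, which allows up to 20.8 CPM.

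Notch3 (chr17:32120820-32166852, minus strand) was high in both kinds of mural cell. Smooth muscle-like cells had 466.6, 533.7, 564.5 and 624.1 CPM and pericyte-like cells 394.2, 463.8, 535.2 and 647.1 CPM, with overlapping ranges. Astrocyte-like cells came next, with 20.4 ± 8.41 CPM from 65 UMIs, which was 4.00% of the pericyte level. Oligodendrocyte-like and choroid plexus-like cells had 0 Notch3 UMIs, which allows up to 1.09 and 1.45 CPM.

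Ednrb (chr14:103814625-103844402, minus strand) was an astrocyte transcript, with 552.5, 495.7, 485.8 and 487.1 CPM and 86.1 ± 3.23% of its UMIs in astrocyte-like cells. Olfactory ensheathing-like cells (122.7 and 167.9 CPM in the 2 animals that had them), oligodendrocyte precursor-like cells (120 ± 39.2 CPM) and ependymal-like cells (69.7 ± 35.3 CPM) followed, and neighbors in that order overlapped. Endothelial-like cells had 5.55 CPM, or 1.10% of the astrocyte level, below the 2.49% of the astrocyte markers. Edn1 and this receptor thus had their highest levels in separate classes.

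**Figure D1:**
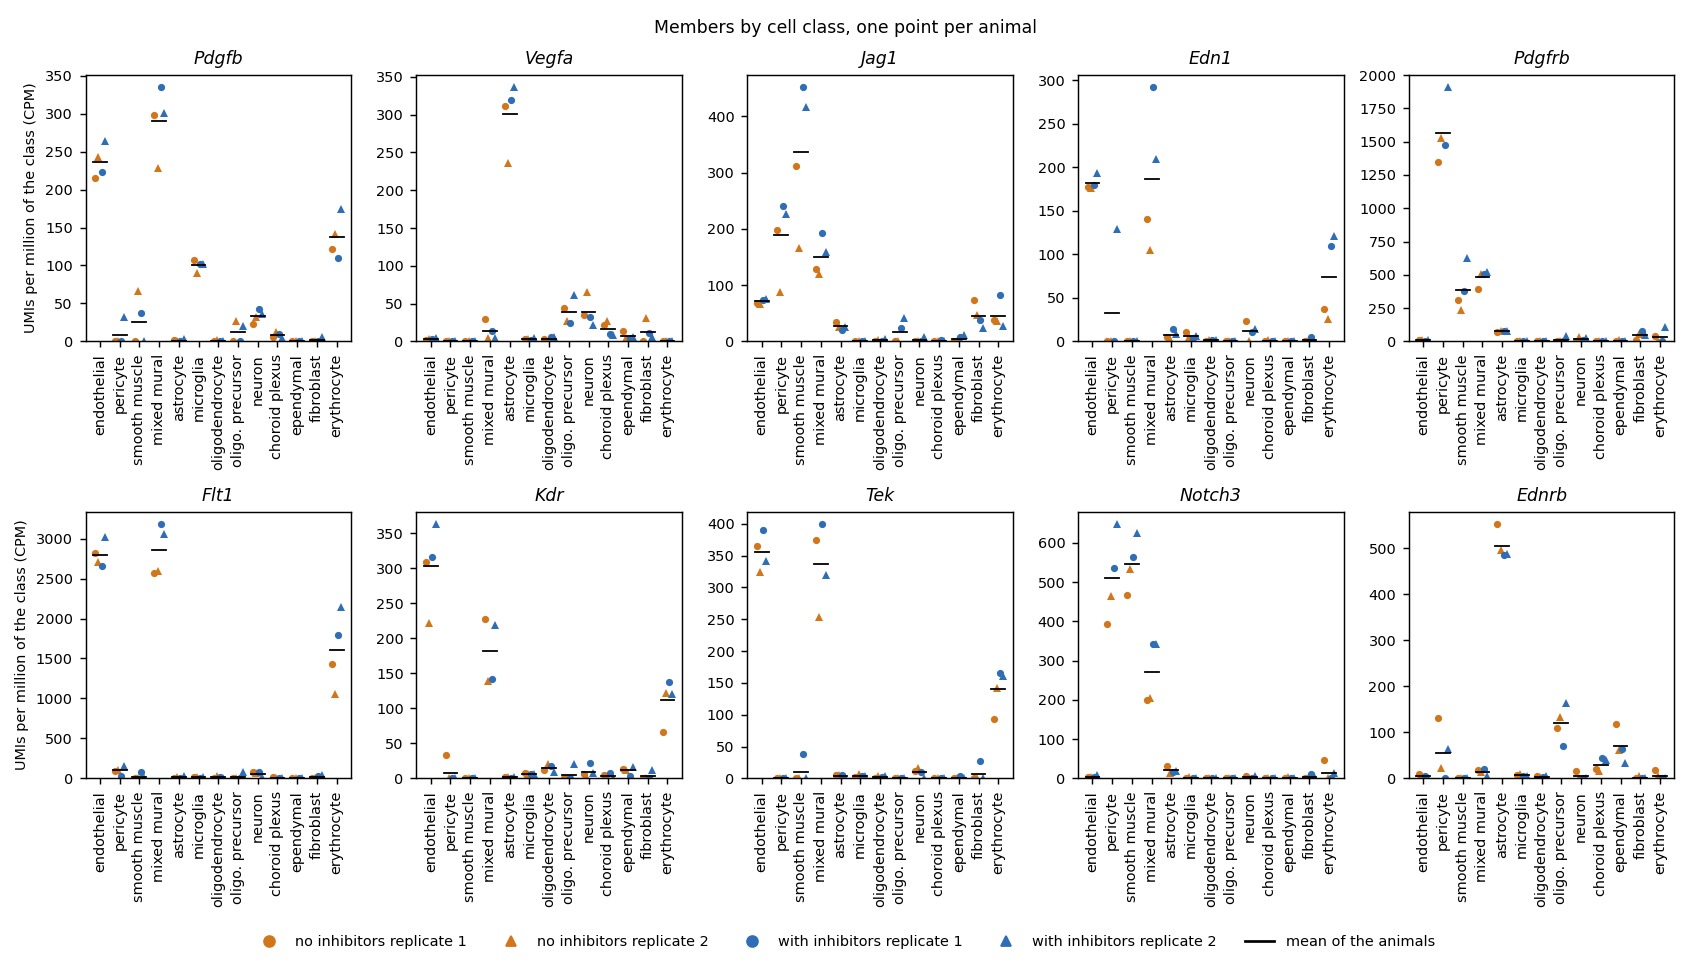
Level of each member (CPM, vertical axis, linear and starting at 0, with its own scale in each panel) in 13 cell classes, with 1 point per animal and a line at the mean. Flt1, Kdr, Tek and Edn1 stand highest in endothelial-like cells and the mixed barcodes, Pdgfrb, Notch3 and Jag1 in mural-like cells, and Vegfa and Ednrb in astrocyte-like cells, while Pdgfb has a second level near 100 CPM in microglia-like cells.

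**Figure D2:**
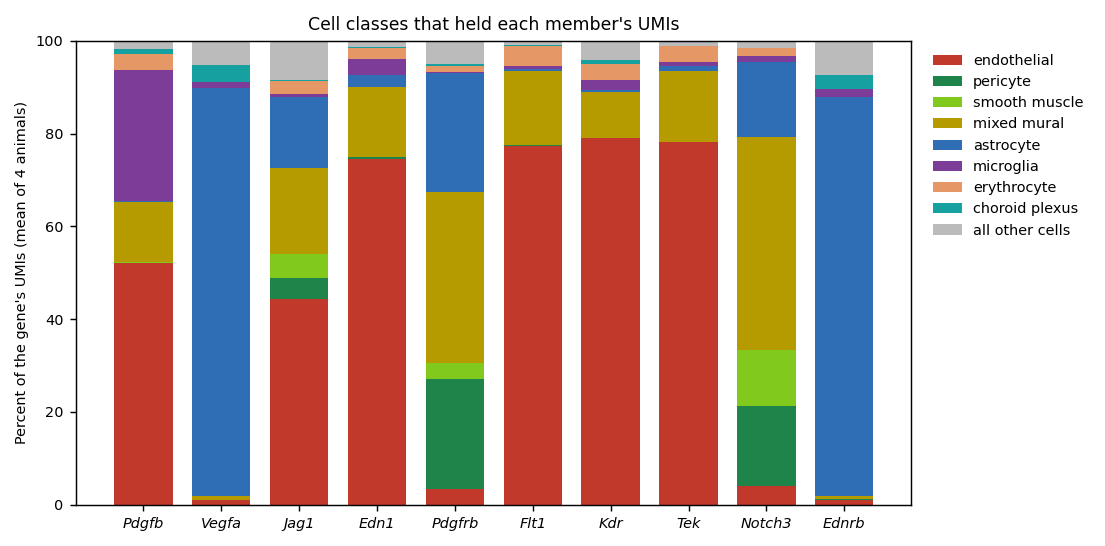
Percent of each member's UMIs (vertical axis, mean of 4 animals) held by each cell class, shown as stacked bars that add to 100. Astrocyte-like cells hold 88.0% of Vegfa and 86.1% of Ednrb, endothelial-like cells 77.3% of Flt1, and mixed barcodes 45.9% of Notch3.

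Members also varied within the large classes. Sub-clusters of endothelial-like cells were named by other markers, those of arterial, capillary and venous cells, and none took the capillary name. The cells were thus divided into arterial-like (334 cells), venous-like (208 cells) and remaining cells (1145 cells), the last made of 4 sub-clusters that markers did not name. The largest of these (565 cells) was led by S100b, Cryab, C1qa, Mbp and Ttr, genes known from glia, microglia and choroid plexus, another (388 cells) by Car4 and Slc38a5, and the smallest (55 cells) by genes that included the astrocyte genes Aqp4 and Slc1a3. Edn1 had 303.9, 285.9, 285 and 399.9 CPM in arterial-like cells against 51.87, 129.9, 129.3 and 152.3 CPM in venous-like cells, and the 4 animals of each did not overlap. Kdr ran the other way, with 183.7, 194.8, 243.5 and 313.1 CPM in arterial-like and 446, 264, 486.1 and 459.8 CPM in venous-like cells. It was higher in the venous-like cells of each animal, though the pooled ranges overlapped.

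Pdgfb reached 289 ± 38.4 CPM in arterial-like and 315 ± 37.0 CPM in venous-like cells, and 177 ± 31.4 CPM in the remaining endothelial-like cells, which were below both in every animal. In these remaining cells the 7 microglia markers summed to 146 to 162 CPM, against 56.9 to 106 CPM in arterial-like and venous-like cells, and the 7 astrocyte markers to 429 to 668 CPM, against 238 to 434 CPM. The 7 endothelial markers summed to 20130 to 22720 CPM, against 17430 to 21360 CPM, and the part of these other RNAs in the lower levels was not tested. Flt1 showed the same arrangement, with 3194 ± 225, 3278 ± 278 and 2422 ± 195 CPM. Tek differed least, with 400.4 ± 34.1, 374 ± 64.9 and 321 ± 22.2 CPM. Jag1 had 99.2 ± 28.8 CPM in arterial-like and 76.0 ± 12.9 CPM in venous-like cells, and the ranges overlapped. Depth moved with these subsets, since the median was 3463 to 3969 UMIs in venous-like cells, 1965 to 2901 in arterial-like cells and 1315 to 1676 in the rest. With every cell thinned to 1000 UMIs (6 arterial-like, 0 venous-like and 216 remaining cells left out), Edn1 was detected in 23.7 ± 4.96% of arterial-like, 13.2 ± 3.70% of venous-like and 10.8 ± 1.79% of the remaining cells. Its level, now with equal weight for each cell, was 332.3 CPM in arterial-like and 187.5 CPM in venous-like cells, a smaller gap than without thinning. Kdr was detected in 18.3 ± 5.42% of arterial-like, 32.9 ± 8.38% of venous-like and 23.9 ± 3.54% of the remaining cells. For Pdgfb the shares were 23.7 ± 5.02%, 20.02 ± 8.41% and 15.4 ± 2.06%. Jag1 turned its direction, with 6.63 ± 2.95% of arterial-like and 10.5 ± 4.25% of venous-like cells (79.3 and 120 CPM), so no order is read for it.

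Astrocyte-like cells fell into 4 clusters, with leading genes Agt and Slc6a11 (979 cells), Hapln1 and Chrdl1 (749 cells), Gfap and Nr2e1 (152 cells) and Gdf10 and Tnc (72 cells). Vegfa was 364.8, 310.3, 379.2 and 411.2 CPM in the Hapln1 cluster and 320.1, 212.8, 334.1 and 316.6 CPM in the Agt cluster. In the Gdf10 cluster it was 106.3, 110.1, 61.74 and 64.99 CPM, from 18 UMIs, and in the Gfap cluster 66.2 ± 57.3 CPM from 9 UMIs. Both small clusters lay below both large ones in every animal.

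Ednrb ordered the clusters differently. It was 832.8, 739.5, 895.2 and 844.9 CPM in the Gdf10 cluster and 704.2, 675.2, 653.1 and 609.4 CPM in the Agt cluster, with no overlap. The Hapln1 cluster followed with 388.4, 331.8, 322.7 and 323.3 CPM, and the Gfap cluster had 233 ± 65.2 CPM. The cluster with the most Vegfa was thus not the one with the most Ednrb. Pdgfrb was 103 ± 12.4 CPM in the Hapln1 cluster and 58.03 ± 6.80 CPM in the Agt cluster, and the ranges of these clusters did not overlap.

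**Figure D3:**
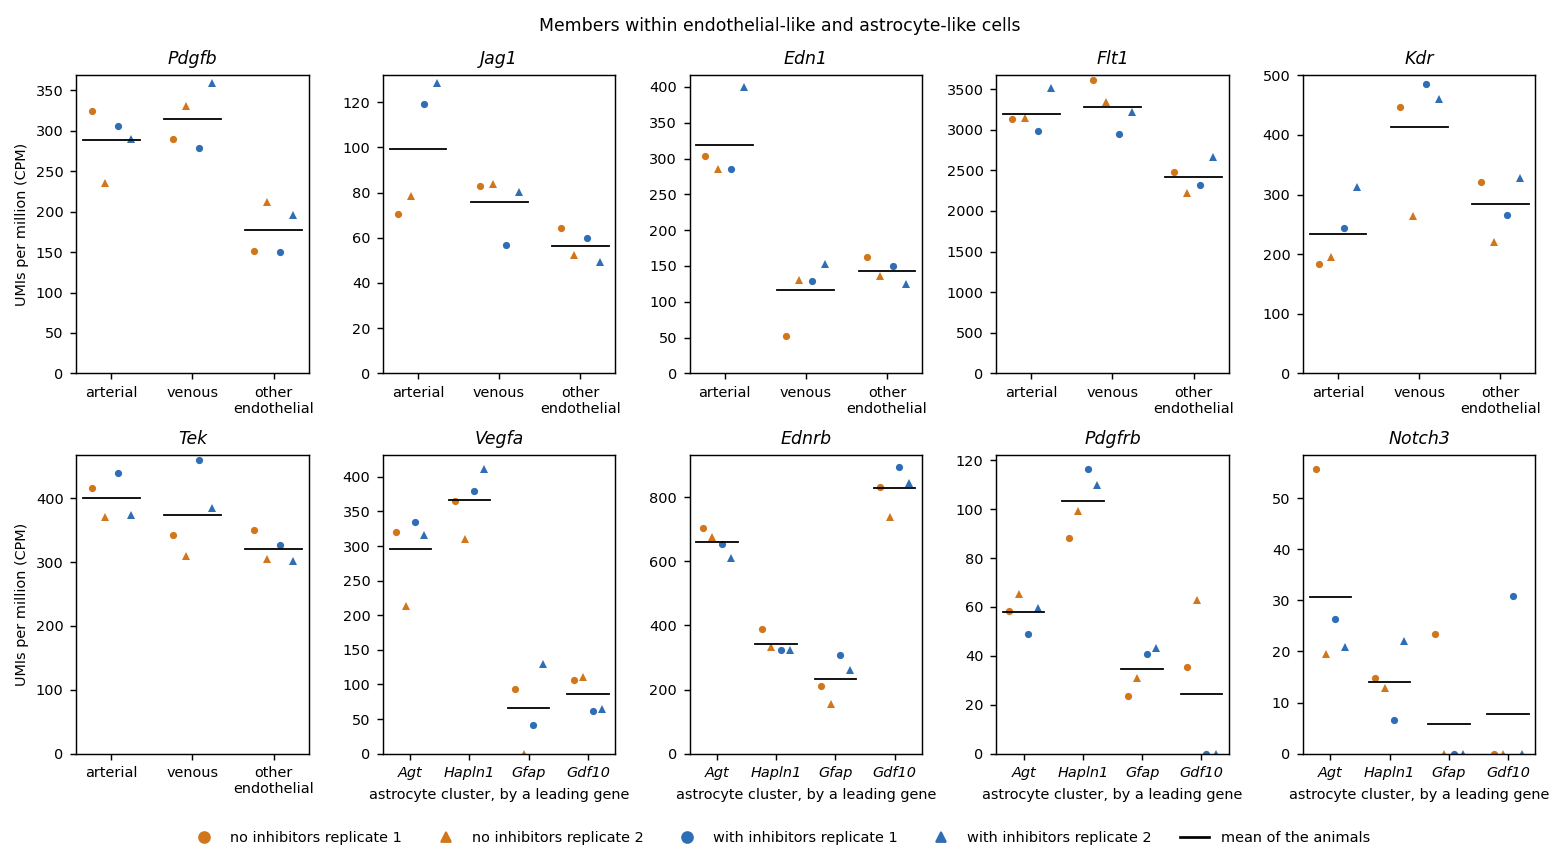
Level of members (CPM, vertical axis from 0) in arterial-like, venous-like and remaining endothelial-like cells, and in the 4 astrocyte-like clusters named by a leading gene, with 1 point per animal and a line at the mean. Edn1 averages 319 CPM in arterial-like cells and 116 CPM in venous-like cells, and Ednrb averages 828 CPM in the Gdf10 cluster against 342 CPM in the Hapln1 cluster.

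Over the 9 classes with at least 20 cells in every animal, pericyte-like cells standing for the mural-like class, the patterns of 10465 genes with a mean of at least 10 CPM were compared with each member by Pearson's r of log2(CPM + 1). These values are a description over 9 points from the same 4 libraries. Pdgfrb and Notch3 were each other's most similar gene (r = 0.97). Smooth muscle-like cells, where Notch3 but not Pdgfrb reached the pericyte-like level, had too few cells and were not among the 9 classes. Rasl11a for Pdgfrb (r = 0.96) and Pth1r for Notch3 (r = 0.97) were also near. So was Atp13a5 (r = 0.96 with either), a marker used to name pericyte-like cells, whose pattern is thus partly set by the naming. Flt1 was most like Zfp366 and Car5a (r = 0.99 each) and Ptprb (r = 0.98), the last encoding the endothelial phosphatase that acts on Tie2. Tek was most like C130074G19Rik (r = 0.98), Ly6a (r = 0.97) and the amino acid transporter gene Slc7a1 (r = 0.96).

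Kdr was nearest to the efflux pump gene Abcb1a (r = 0.93), itself a marker used to name endothelial-like cells. Efna1 (r = 0.92) and Cactin (r = 0.91) came next for Kdr. Edn1 was nearest to Pwwp2b, Lima1 and Rasd1 (r = 0.96, 0.96 and 0.95). Pdgfb, with its endothelial and microglial levels, was nearest to Lmo2 (r = 0.94), Tubb5 and Nck1 (r = 0.92 each). Vegfa was nearest to Xylt1 (r = 0.94), Psd2 and Kcnk1 (r = 0.92 each). Ednrb was nearest to Tiparp (r = 0.96), Sdc4 and Slc9a3r1 (r = 0.93 each), and Jag1 to Ptges (r = 0.95), Osmr and Il17rd (r = 0.92 each).

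A list of 40 further genes of the same pathways was described beside the members. In endothelial-like cells the pathway genes of highest level were Ptprb, at 856 ± 60.6 CPM, and Ece1, which encodes the enzyme that cleaves the endothelin precursor, at 261 ± 37.0 CPM. Ece1 was also at 300.3 ± 52.7 CPM in pericyte-like cells. Tie1, the receptor partner of Tie2, had 258 ± 23.1 CPM in endothelial-like cells. Hey1, a Notch target known from arteries, had 241 ± 23.5 CPM in arterial-like and 47.7 ± 19.9 CPM in venous-like cells.

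Mural-like cells carried the contractile endothelin receptor and Notch mediators. Ednra had 233 ± 33.3 CPM in smooth muscle-like and 176 ± 35.6 CPM in pericyte-like cells, where Ednrb had 0 and 7 UMIs. The Notch target Heyl had 283 ± 178 CPM in pericyte-like cells, and Nrarp, a Notch-induced inhibitor, had 169 ± 53.9 CPM. Over all mural-like cells the highest pathway genes were again Ptprb (731 ± 105 CPM) and Ece1 (299 ± 22.2 CPM), and 700 of the 704 Ptprb UMIs were in the mixed barcodes.

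In astrocyte-like cells, which carry Vegfa and Ednrb, the highest were the Notch target Hes5 (448 ± 35.4 CPM) and Lfng (277 ± 31.8 CPM), a glycosyltransferase that modifies Notch. In choroid plexus-like cells they were Notch2 (85.3 ± 21.3 CPM) and Pdgfa (56.9 ± 13.7 CPM). Pdgfa, the ligand mainly of PDGFRα, was highest in oligodendrocyte precursor-like (418 ± 227 CPM) and oligodendrocyte-like cells (320 ± 27.7 CPM), and not in the class with the most Pdgfb.

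**Figure D4:**
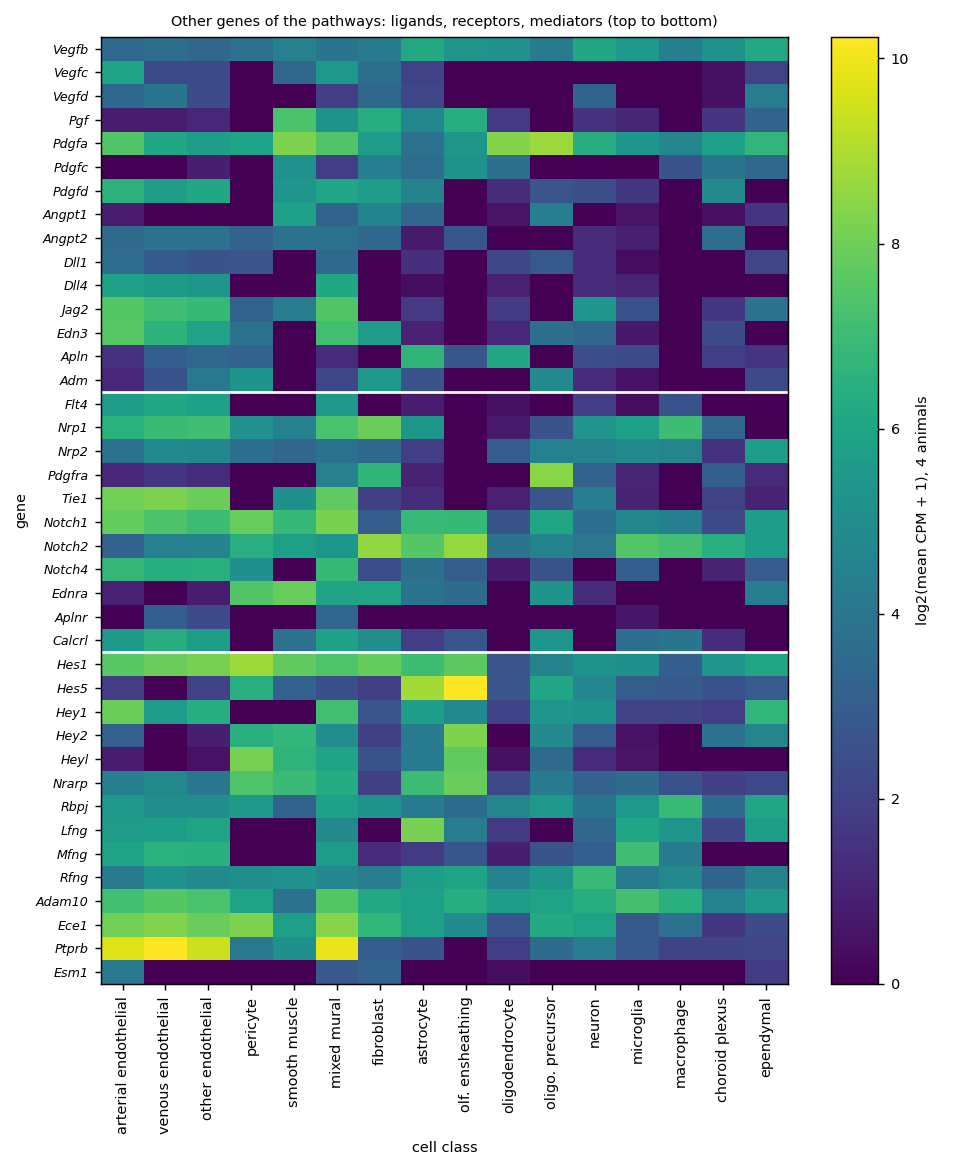
Level of the 40 other pathway genes (rows, ligands, receptors and mediators divided by white lines) in 16 cell classes (columns), as log2(mean CPM + 1) over the animals in color. Ptprb is brightest in the endothelial-like columns, Hes5 in the astrocyte-like and olfactory ensheathing-like columns, and Ednra in the pericyte-like and smooth muscle-like columns.

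The second question was whether any member differed between brains dissociated without and with inhibitors. UMIs were summed per animal and class and tested with edgeR's quasi-likelihood test. Fold changes are no inhibitors over with inhibitors, and a gene was called when it changed by more than 0.58 on the log2 scale in either direction with a p, adjusted by Benjamini and Hochberg's method, under 0.05. None of the 60 tests of a member, in all cells and 13 classes and subsets, gave a call (0 by DESeq2 as well). The 13 with an unadjusted p under 0.05 were 1 of 10 in all cells, 1 of 6 in astrocyte-like, 1 of 7 in endothelial-like, 3 of 8 in mural-like and 2 of 2 in choroid plexus-like cells, and 2 of 6 in arterial-like, 1 of 6 in venous-like cells and 2 of 8 in the mixed barcodes, subsets that hold UMIs already counted. Of all genes, 887 of 13758, 422 of 8344, 459 of 8275, 246 of 4623 and 918 of 4637 had such a p in the first 5 of these, and 262 of 4080, 170 of 3934 and 217 of 3810 in the subsets. DESeq2 gave no adjusted p for the members in choroid plexus-like cells. In the same tests the share of all genes called was 0.0145% in all cells, 0.0363% in endothelial-like, 0.0216% in mural-like, 0.0479% in astrocyte-like, 0.517% in microglia-like cells, and 4.79% for the choroid plexus. The subsets gave 0.172% (arterial-like) and 0.105% (mixed barcodes), and the share was 0.216% for oligodendrocyte-like and 0.868% for macrophage/monocyte-like cells. In ependymal-like, neuron-like, pericyte-like and venous-like cells it was 0.0%. No member passed the low-count filter in neuron-like and macrophage/monocyte-like cells. On simulated counts for the endothelial-like comparison, this test recovered 56% of genes changed 2-fold and 96% of those changed 4-fold. It also called 7 unchanged genes, with 8254 genes run. The changed genes were drawn from well counted genes, and the spread between animals was set to a fixed value. These shares therefore do not carry over to members with few UMIs or to the smaller classes. With 2 animals a group, an exact permutation test of a single gene cannot give a two-sided p below 0.333.

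Among the endothelial members, Flt1 (-0.02 ± 0.09, log2 fold change ± SE), Pdgfb (-0.07 ± 0.13), Tek (-0.07 ± 0.11), Edn1 (-0.06 ± 0.13) and Jag1 (-0.14 ± 0.18) had small fitted differences in endothelial-like cells. Kdr had the largest there apart from Pdgfrb, whose 0.42 ± 0.54 rested on 35 UMIs. Kdr was -0.38 ± 0.13 (edgeR adjusted p = 0.712), with both animals without inhibitors (309 and 222.1 CPM) below both with inhibitors (316.2 and 362.6 CPM). It was -0.54 ± 0.21 in arterial-like (edgeR adjusted p = 0.531) and -0.51 ± 0.22 in venous-like cells (edgeR adjusted p = 0.994). Without the replicate 1 animal of the no inhibitors group, the endothelial-like value became -0.59 and was called (edgeR adjusted p = 0.00654), as were 51 of 9202 genes in that fit, against 3 of 8275 with all animals. The lone animal left in that group is assumed to vary like those of the other, and it had the lowest Kdr level. In turn, without the replicate 2 animal of that group the value was -0.15 (edgeR adjusted p = 0.976).

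In endothelial-like cells 3 of the 7 members with at least 20 UMIs had groups that did not overlap (Jag1, Edn1 and Kdr), all lower without inhibitors, against 34.0% of all such genes in either direction. They were 2 of 6 in arterial-like cells (Jag1 and Kdr, against 34.2%) and 4 of 6 in venous-like cells (Jag1 and Flt1 higher, Kdr and Tek lower, against 32.7%). In mural-like cells these were 6 of 8, again all lower without inhibitors, against 33.5%. Edn1 was -1.05 ± 0.27 there (edgeR adjusted p = 0.578), with 108.7 and 76.03 CPM without and 200.7 and 188.7 CPM with inhibitors. As 132 of its 136 UMIs were in the mixed barcodes, the value describes those, where it was -0.96 ± 0.29 (edgeR adjusted p = 0.384). It was called in them when doublets were kept (-1.12, edgeR adjusted p = 0.0257), as were 14 of 3898 genes, against 4 of 3810 without doublets.

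Notch3 was -0.54 ± 0.18 in mural-like cells (edgeR adjusted p = 0.808). Without the mixed barcodes its levels were 422.3 and 491.6 CPM without and 547.4 and 639.8 CPM with inhibitors, and the fold was -0.33 ± 0.26 (edgeR adjusted p = 0.918). Jag1 was -0.56 ± 0.25 in mural-like cells and -0.85 ± 0.40 without the mixed barcodes (edgeR adjusted p = 0.889 and 0.770), where the levels were 241.3 and 119.6 CPM without and 328.4 and 286.8 CPM with inhibitors. Pdgfrb was -0.17 ± 0.15 and -0.32 ± 0.21 in the same comparisons (edgeR adjusted p = 0.987 and 0.918). Once the mixed barcodes were left out, the groups did not overlap for 3 of 3 members with at least 20 UMIs (Jag1, Pdgfrb and Notch3, all lower without inhibitors, against 34.5% of such genes), and none was called. In pericyte-like cells alone this held for 2 of 3 (Jag1 and Notch3, against 34.7%), and in the mixed barcodes for 5 of 8 (against 34.1%).

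In astrocyte-like cells Vegfa was -0.28 ± 0.13 (edgeR adjusted p = 0.939), with 312 and 236.5 CPM without and 319.3 and 336.3 CPM with inhibitors. Ednrb was 0.10 ± 0.12 (edgeR adjusted p = 0.995) and Pdgfrb -0.09 ± 0.21 (edgeR adjusted p = 0.995). Of the 7 members with at least 20 UMIs, 3 had groups that did not overlap (Ednrb higher, Vegfa and Edn1 lower without inhibitors), against 33.1% of such genes. Pdgfb in microglia-like cells was -0.03 ± 0.15 (edgeR adjusted p = 0.991), a difference within the spread of the animals. Of 5 members with at least 20 UMIs in microglia-like cells 1 had groups that did not overlap (Ednrb, against 34.8%), and of 2 in oligodendrocyte-like cells 0 (against 37.3%).

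The largest fitted differences were in choroid plexus-like cells, a class in which many genes differed. Vegfa was 1.51 ± 0.56 (edgeR adjusted p = 0.114), with 14 and 21 UMIs without and 4 and 2 UMIs with inhibitors, or 21.38, 26.91, 10.02 and 8.704 CPM. Ednrb was -1.11 ± 0.39 (edgeR adjusted p = 0.0877), with 19.85, 15.38, 45.10 and 39.17 CPM. Neither pair of groups overlapped, against 46.0% of genes with at least 20 UMIs in this class. The median depth of these cells moved with the group, at 2725 and 2378.5 UMIs without and 1923.5 and 1327 UMIs with inhibitors, and its part was not tested. Ependymal-like cells had Ednrb at 0.72 ± 0.43 (edgeR adjusted p = 1.00), with overlapping groups (31.5% of genes there did not overlap).

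Over all cells, where class sizes also differ, Ednrb was 0.41 ± 0.11 (edgeR adjusted p = 0.579), with 107.8, 96.96, 85.02 and 76.62 CPM. The other members lay between -0.51 ± 0.22 for Kdr and 0.12 ± 0.13 for Vegfa. Of the 10 members, 6 had groups that did not overlap, against 40.9% of genes with at least 20 UMIs. In such sums, fewer cells of a type and less RNA per cell cannot be told apart.

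**Figure D5:**
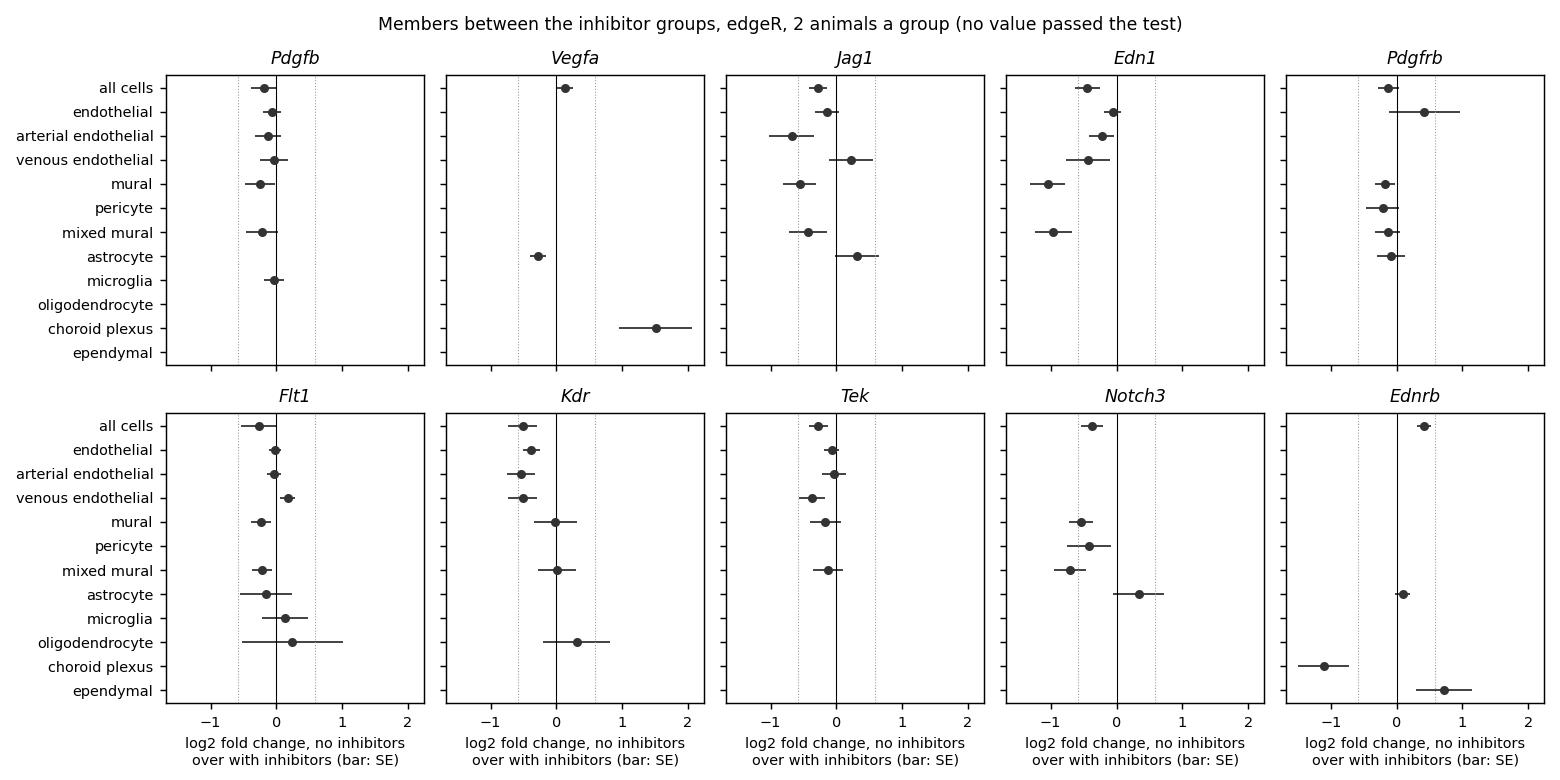
Fitted log2 fold change of each member (horizontal axis, no inhibitors over with inhibitors; bars are the SE, dotted lines mark 0.58 on either side) in each class or subset where it was tested (vertical axis). No value passed the test. Kdr is at -0.38 in endothelial-like, Edn1 at -1.05 in mural-like and Vegfa at 1.51 in choroid plexus-like cells.

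The other genes of the pathways were not called either. None of their 206 tests gave a call (0 by DESeq2), and 20 had an unadjusted p under 0.05. These were 2 of 38 in all cells, 1 of 21 in astrocyte-like, 3 of 25 in endothelial-like and 5 of 23 in mural-like cells. Ependymal-like (1 of 10) and microglia-like cells (1 of 15) added to them. Arterial-like (2 of 19) and venous-like cells (1 of 17) and mixed barcodes (4 of 20) hold UMIs already counted. Of all genes, 162 of 4195 had such a p in ependymal-like and 574 of 8706 in microglia-like cells. The median log2 fold change of the list was 0.04 in endothelial-like cells (25 of 40 genes tested), -0.22 in mural-like cells (23 tested) and 0.05 in astrocyte-like cells (21 tested), where the medians of all genes were 0.00, 0.01 and 0.00. For the members they were -0.07, -0.24 and 0.01. Without the mixed barcodes 5 list genes could be tested in mural-like cells, and 3 of them were positive, namely Nrarp (1.06 ± 0.59), Hes1 (0.77 ± 0.37) and Notch1 (0.67 ± 0.45), with Ece1 (-0.24 ± 0.42) and Ednra (-0.29 ± 0.43) negative and none called. In astrocyte-like cells the Notch target Hes1 had the largest difference, 0.61 ± 0.17 (edgeR adjusted p = 0.293), and Hey1 followed at 0.33 ± 0.25. Hes1 was called when the replicate 1 animal without inhibitors was left out (0.79, edgeR adjusted p = 0.0256), as were 6 of 8833 genes, against 4 of 8344 with all animals. The animal left in that group, assumed to vary like the others, had the higher Hes1 level of its group.

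The largest list differences in endothelial-like cells were those of the glycosyltransferase gene Mfng (-0.50 ± 0.18, edgeR adjusted p = 0.721) and of Flt4, the VEGF-C receptor (-0.46 ± 0.21, edgeR adjusted p = 0.881). In mural-like cells they were Pdgfd (-1.03 ± 0.41, edgeR adjusted p = 0.853) and Vegfc (-0.95 ± 0.65, edgeR adjusted p = 0.951). These describe the mixed barcodes, where they were -1.08 ± 0.47 and -0.83 ± 0.73, since neither passed the low-count filter without them. In choroid plexus-like cells they were Pdgfd (0.41 ± 0.40) and Pdgfa (-0.37 ± 0.28), with edgeR adjusted p = 0.643 and 0.523.

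Whether the groups differed by unequal amounts in the parts of the vessel wall was tested as an interaction, with the animal as a block. For endothelial-like against mural-like cells, 0 of 8 members were called (0.0415% of all genes). Edn1 had the largest difference, 1.00 ± 0.30 higher in endothelial-like cells (edgeR adjusted p = 0.438), and nearly all its mural-like UMIs were in the mixed barcodes. Against astrocyte-like cells, 0 of 10 members were called for endothelial-like and 0 of 10 for mural-like cells, where 0.0% of all genes were called in either. With an unadjusted p under 0.05 there were Edn1 in the first (1.44 ± 0.63) and Jag1 (-0.87 ± 0.44) and Notch3 (-0.86 ± 0.44) in the second. Of all genes, 451 of 9731 and 384 of 8593 had such a p in these tests. For endothelial-like against mural-like cells it was 366 of 7233. Without the mixed barcodes Jag1 and Notch3 were -1.16 ± 0.58 and -0.64 ± 0.52 in mural-like against astrocyte-like cells.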

How the data were processed

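Whole-brain single-cell libraries of 4 mice were analyzed, 2 per group as the labels give them, all from 1 labeled batch. The authors deposited raw counts, that is UMIs per gene and barcode, made with Cell Ranger 3.0.0 from 3′ version 2 chemistry on mm10 (GRCm38). The other matrix columns hold identifiers.

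Barcodes with at least 400 genes and at most 20% mitochondrial UMIs passed (10067), and 256 (2.54%) were removed as doublets, a preset share per library ranked by likeness to simulated doublets. Clusters (Leiden, resolution 1, 2000 variable genes, 30 components) were named by markers, a name needing at least 3 of them. The members, 40 pathway genes and 44 activation genes were left out of clustering and naming. Endothelial-like and mural-like cells were clustered again (resolution 0.8, 1000 variable genes, 15 components). Members, gene lists and markers were chosen with earlier results of these data known. All members are named, with the pathway genes of the 2 highest levels and 2 largest fold changes in 4 classes and the 3 genes most like each member.

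Sums per animal were compared by edgeR 4.0.16 in R 4.3.3 with low genes filtered, TMM factors and the group as the only term, in classes with at least 20 cells per animal. Levels are untested CPM without TMM. Alternatives were DESeq2 1.42.0, median-of-ratios factors, no filter, leaving out each animal, a replicate block, a stricter cell filter (600 genes, 10%), doublets kept, resolutions 0.6 and 1.5, and thinning to 1000 UMIs. Leaving out the mixed mural barcodes, leaving out an astrocyte-led endothelial sub-cluster and a crossed block were added after seeing the data. The edgeR step was tested on simulated data. Limits for a count of 0 are 3 UMIs of the class total over the 4 animals and cover counting error only. Gene positions are from GENCODE M21, and Python 3.11.15 was used.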

Additional observations from a re-analysis of the deposited data

Results flagged for a closer look

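The 2676 barcodes left out of the cells (too few genes, too much mitochondrial RNA, or called as doublets) held 4261558 UMIs and enter no comparison. Every member had more UMIs in them than the 3 that a count of 0 allows, at mean levels of 31.6 CPM for Pdgfb, 58.2 CPM for Vegfa, 12.1 CPM for Jag1, 10.8 CPM for Edn1, 26.8 CPM for Pdgfrb, 161.5 CPM for Flt1, 18.3 CPM for Kdr, 23.1 CPM for Tek, 11.1 CPM for Notch3 and 90.2 CPM for Ednrb. In the kept cells the mean levels of the astrocyte members were close to these, with 52.7 CPM for Vegfa and 91.6 CPM for Ednrb, while the endothelial members were higher, with 644 CPM for Flt1 and 79.9 CPM for Tek. No cause was tested.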

How the results depend on the processing

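Of 336 recomputed counts of called members or pathway genes, 333 kept their value of 0, as did all 20 counts of the interaction. Keeping doublets gave 1 called member in the mixed mural barcodes (Edn1). When animals were left out in turn, the count ranged from 0 to 1 for members in endothelial-like cells (Kdr, without no inhibitors replicate 1) and from 0 to 1 for pathway genes in astrocyte-like cells (Hes1, the same animal). Of the recomputed fold changes 13 changed sign, all when 1 animal was left out, from values between -0.26 (Flt1, all cells) and 0.12 (Vegfa, all cells). Their ranges over the animals left out were in endothelial-like cells Pdgfb -0.20 to 0.092, Edn1 -0.12 to 0.022, Flt1 -0.12 to 0.095, Tek -0.15 to 0.0069, in microglia-like cells Pdgfb -0.15 to 0.095, in astrocyte-like cells Pdgfrb -0.19 to 0.00013, and in all cells Pdgfb -0.42 to 0.088, Vegfa -0.012 to 0.27, Pdgfrb -0.33 to 0.066, Flt1 -0.55 to 0.10. The fit with a replicate block gave 0 called members in every class. Same-numbered animals did not deviate together in expression (r from -0.205 to 0.0793 over classes). This cannot tell whether they were handled together, and olfactory ensheathing-like cells were found in replicate 1 of each group alone. In neuron-like and macrophage/monocyte-like cells, where r was -0.205 and -0.112, a crossed block called 0 and 3 genes, against 0 and 6. The highest class of each member was kept by 10 of 10 members under every other setting and by 7 of 10 at resolution 0.6, where no sub-cluster of mural-like cells could be named as pericyte-like or smooth muscle-like. Several pericyte-like values rest on 14 to 73 UMIs.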

Other observations

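Olfactory ensheathing-like cells, found in replicate 1 of each group alone, carried several Notch mediators. The Notch target Hes5 was at 1119 and 1242 CPM in the 2 animals, against 448 ± 35.4 CPM in astrocyte-like cells. Heyl, another Notch target, was at 184 and 235 CPM, against 283 ± 178 CPM in pericyte-like and 18.4 ± 4.95 CPM in astrocyte-like cells, and Nrarp at 230 and 246 CPM, against 169 ± 53.9 CPM in pericyte-like and 127 ± 19.9 CPM in astrocyte-like cells. Notch2, a Notch receptor, was at 505.9 and 268.6 CPM there and at 375 ± 59.5 CPM in fibroblast-like cells. These values rest on 61 cells, and no test was possible.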
